A study of Mus musculus with 23 samples.

Results

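Rare airway cell markers were 9 genes, each chosen by its name in the deposited gene tables, out of 41073 genes. Calca, Chga and Syp mark neuroendocrine cells, Trpm5, Pou2f3, Dclk1 and Avil mark tuft cells, and Foxi1 and Ascl3 mark ionocytes. All 9 were present in the tables. The rule used their names and no measured value, though the set was proposed with earlier results of these data known. They were read in bulk RNA from EpCAM-positive lung epithelial cells of wild-type C57BL/6 mice, whose age the labels do not give, cultured on transwell membranes at the air-liquid interface, with medium below the cells and air above them. The 3 experiments (A, B and C) gave 23 libraries. Freshly isolated, uncultured and untreated cells gave 3 libraries, untreated cells on the day of airlift, when the medium above the cells is removed, gave 6, cultures with non-typeable Haemophilus influenzae (NTHi, an airway bacterium) at day 4 gave 7, and untreated control cultures at day 4 gave 7. The labels do not say whether replicates were separate animals or cultures, so p-values measure the spread between these libraries, which may be technical.

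Neuroendocrine cells, tuft cells and ionocytes are scarce in the airway lining. Neuroendocrine cells sense the airway lumen and release peptides and amines from dense granules towards nerves and immune cells. Tuft cells, also called brush cells, detect bitter and other compounds through a taste-type signalling cascade, and ionocytes carry ion transporters, Cftr among them. In bulk RNA, fewer cells of a type and less RNA per cell cannot be told apart.

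Libraries held 32323375 to 39081663 counts, and levels below are CPM (counts in a library scaled to a fixed total) with totals adjusted by the trimmed mean of M-values (TMM). Among counts below 20, 69.3% to 74.9% were even, so the number of independent fragments may lie below the count. Epithelial markers were abundant in every group: Epcam averaged 242 CPM in fresh cells, 334 at airlift, 530 in NTHi cultures and 420 in day 4 controls. Macrophage markers were also present, with Cd68 averaging 222 CPM in fresh cells, 262 at airlift, 303 in NTHi cultures and 458 in day 4 controls. Control replicate 1 and NTHi replicate 3 of experiment C differed most from their replicates, with chi-square values per degree of freedom over genes of 41.4 to 86.3, against 2.97 to 26.1 for the other pairs. Leaving out these libraries changed no call of a member.

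In NTHi cultures, 1 of the 5 genes that could be tested, Calca, was lower than in day 4 controls, and none was higher, where 20.4% of all genes tested were lower and 20.1% higher. In the untreated course the genes did not move as 1 group. Between fresh isolation and airlift, Dclk1 rose while Calca and Syp fell, and between airlift and day 4, Calca and Chga rose while Dclk1, Avil, Pou2f3 and Ascl3 fell. Trpm5 and Foxi1 had too few counts to enter any of these fits, and Pou2f3 and Ascl3 too few for the NTHi fit. In the untreated fit Pou2f3 and Ascl3 passed the filter on low counts mainly through libraries of the groups where they were high.

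Over the whole table, the share of genes called gives the measure for these counts. For NTHi against control, 0 of 5 genes tested were higher and 1 was lower, where 20.1% of 16337 genes were higher and 20.4% lower. For airlift against fresh isolation, 1 of 7 was higher and 2 lower, where 37.9% of 18302 genes were higher and 36.7% lower. For day 4 control against airlift, 2 of 7 were higher and 4 lower, with 26.9% of genes higher and 27.7% lower. For day 4 control against fresh isolation, 1 of 7 was higher and 3 lower, with 38.8% of genes higher and 37.7% lower. The 3 untreated comparisons share libraries. The NTHi effect differed between experiments for 0 of 16337 genes in edgeR, or 0% (675 genes had an unadjusted p below 0.05), and the unadjusted p of the 5 genes tested lay between 0.495 and 0.973.

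**Figure D1:**
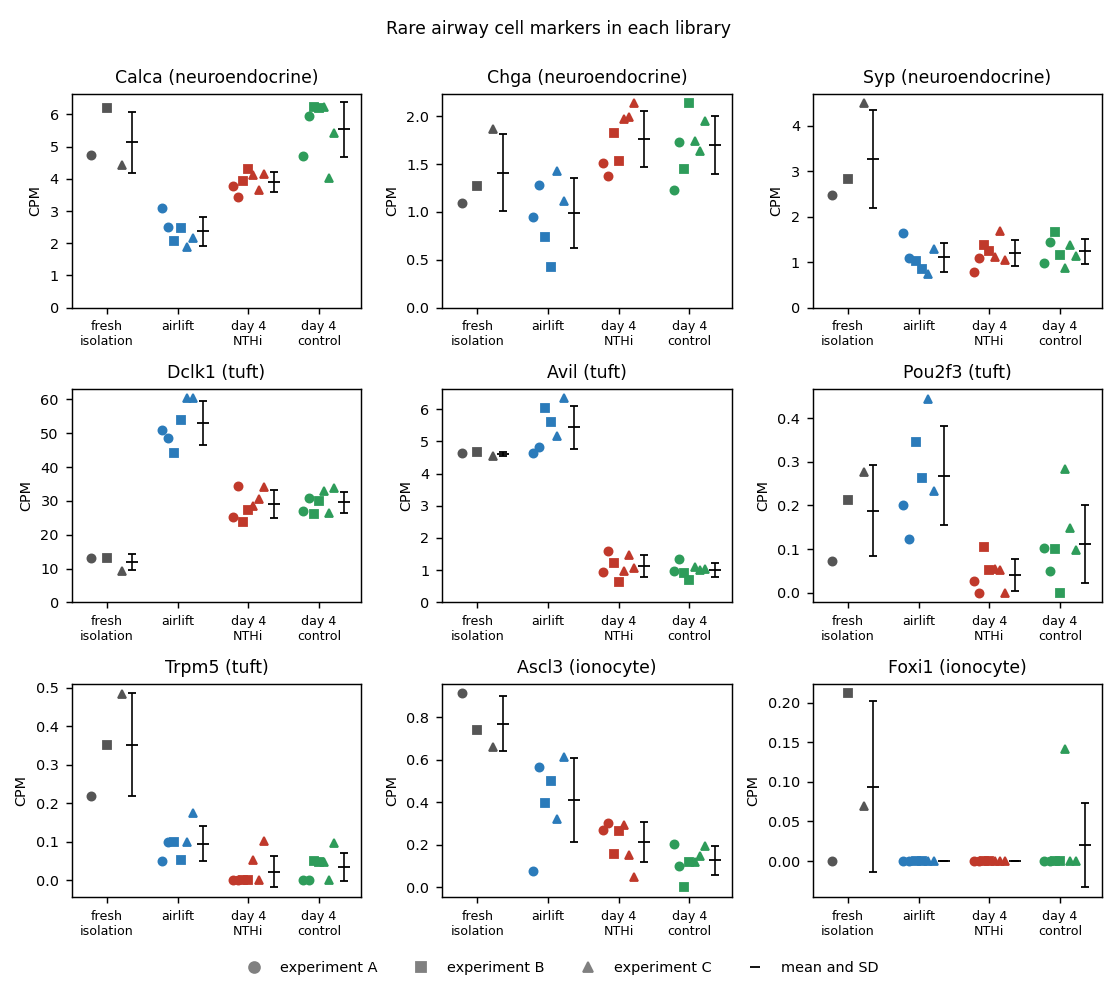
CPM (vertical axes, linear) of each gene in each of the 23 libraries, by group, with the marker shape giving the experiment and the bar the group mean and SD (n = 3 fresh, 6 airlift, 7 NTHi, 7 control). Dclk1 peaked at airlift with a mean of 53.1 CPM, Avil averaged 4.61 CPM in fresh cells, 5.44 at airlift, 1.13 in NTHi cultures and 1.005 in controls, and Foxi1 was at 0 in 20 of 23 libraries.

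Calca encodes calcitonin and calcitonin gene-related peptide, the peptide hormone and neuropeptide made from its alternative transcripts, and the peptide is a product of pulmonary neuroendocrine cells. It had 4.75, 6.21 and 4.44 CPM in the fresh cells of experiments A, B and C. At airlift it ranged over 1.88 to 3.11 CPM (median 2.32). At day 4 it ranged over 3.43 to 4.31 CPM (median 3.92) in NTHi cultures and over 4.04 to 6.23 CPM (median 5.94) in controls. Every airlift library lay below every fresh and every day 4 library. Calca fell at airlift against fresh isolation by 1.10 ± 0.17 on the log2 scale (SE, edgeR quasi-likelihood F-test, Benjamini-Hochberg adjusted p = 8.19e-06), and was higher in day 4 controls than at airlift by 1.24 ± 0.13 (edgeR adjusted p = 3.35e-07). Day 4 controls and fresh cells, the 2 highest groups, differed by 0.14 ± 0.16 (edgeR adjusted p = 0.429).

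Calca was lower in NTHi cultures than in day 4 controls, with a log2 fold change of -0.50 ± 0.10 (edgeR adjusted p = 0.000955, a fold of 0.706). The ranges overlapped: the lowest control library, replicate 2 of experiment C at 4.04 CPM, lay below several NTHi libraries. In experiment A the NTHi libraries had 3.79 and 3.43 CPM, against 4.70 and 5.94 CPM in its controls, and in experiment B they had 3.92 and 4.31 CPM, against 6.23 and 6.19 CPM. In experiment C they had 4.13, 3.66 and 4.14 CPM, against 6.23, 4.04 and 5.41 CPM in its controls. Within-experiment log2 fold changes were -0.57 ± 0.19 in A, -0.60 ± 0.16 in B and -0.40 ± 0.18 in C, with edgeR adjusted p of 0.066, 0.0317 and 0.188. Reads of Calca and its paralog Calcb, which are near-identical in part, may be assigned to either gene, so both are uncertain. Calcb averaged 17.4 ± 6.35 CPM in NTHi cultures and 21.3 ± 5.51 CPM in day 4 controls (SD, n = 7 each), a log2 fold change of -0.33 ± 0.12 (edgeR adjusted p = 0.0343).

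Chga encodes chromogranin A, a core protein of dense secretory granules. It had 1.10, 1.27 and 1.87 CPM in the fresh cells of experiments A, B and C. At airlift it ranged over 0.421 to 1.43 CPM (median 1.03), in NTHi cultures over 1.37 to 2.14 CPM (median 1.83) and in day 4 controls over 1.23 to 2.14 CPM (median 1.73). Airlift overlapped with all other groups. Chga rose in day 4 controls against airlift by 0.76 ± 0.21 on the log2 scale (edgeR adjusted p = 0.00603). Within experiments this difference was 0.41 ± 0.31 in A, 1.60 ± 0.38 in B and 0.48 ± 0.25 in C, and without experiment B the pooled value was 0.43 ± 0.20 (edgeR adjusted p = 0.0923). From the highest mean to the lowest the order was NTHi, day 4 control, fresh and airlift. Neighbours in that order did not differ past the threshold: NTHi against control differed by 0.05 ± 0.13 (edgeR adjusted p = 0.801), day 4 control against fresh by 0.26 ± 0.27 (edgeR adjusted p = 0.391) and airlift against fresh by -0.50 ± 0.28 (edgeR adjusted p = 0.112).

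Calca and Chga both rose between airlift and day 4, and the 250 bases before the start of each are given for that reason, from RefSeq on build GRCm38.p6, 5′ to 3′ on the strand of the gene. The deposited counts use the build GRCm39, so these coordinates place the sequence and no count. Capitals mark the cAMP response element half-site TGACG (reverse complement CGTCA) and the E-box CAGCTG, which reads the same on both strands and is a form bound by basic helix-loop-helix factors. Calca lies at chr7:114636358-114636607 on the minus strand and Chga at chr12:102554691-102554940 on the plus strand.
Calca: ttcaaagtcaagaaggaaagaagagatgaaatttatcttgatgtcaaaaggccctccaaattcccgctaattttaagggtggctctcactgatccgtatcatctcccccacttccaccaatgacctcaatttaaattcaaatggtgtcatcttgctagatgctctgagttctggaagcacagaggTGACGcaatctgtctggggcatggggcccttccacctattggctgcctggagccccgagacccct
Chga: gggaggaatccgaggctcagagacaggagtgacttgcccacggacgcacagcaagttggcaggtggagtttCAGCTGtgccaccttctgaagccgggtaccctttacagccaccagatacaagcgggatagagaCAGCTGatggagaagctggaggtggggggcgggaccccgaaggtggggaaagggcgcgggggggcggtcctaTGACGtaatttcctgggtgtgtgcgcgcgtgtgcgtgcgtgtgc
The half-site began 65 bases before the start in Calca and 44 bases before it in Chga, and the 2 E-boxes of Chga began 179 and 116 bases before it. No match overlapped another. Among 32841 promoters searched over the same 250 bases and both strands, 17.8% held TGACG and 13.0% held CAGCTG.

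Syp encodes synaptophysin, a membrane protein of small synaptic-like vesicles. It had 2.48, 2.82 and 4.51 CPM in the fresh cells of experiments A, B and C. It ranged over 0.741 to 1.65 CPM (median 1.05) at airlift, 0.785 to 1.69 CPM (median 1.12) in NTHi cultures and 0.874 to 1.67 CPM (median 1.17) in day 4 controls. Each fresh library lay above all cultured ones, and the 3 cultured groups overlapped. Syp fell at airlift against fresh isolation by 1.55 ± 0.26 on the log2 scale (edgeR adjusted p = 3.17e-05) and had a log2 fold change of -1.4 ± 0.25 in day 4 controls against fresh cells (edgeR adjusted p = 5.68e-05). Among the cultured groups, day 4 control against airlift gave 0.15 ± 0.22 (edgeR adjusted p = 0.583) and NTHi against control gave -0.05 ± 0.18 (edgeR adjusted p = 0.844). Syp is also a gene of neurons, and the summed CPM of 8 nerve and glia markers ran alongside it: 12.8 to 19.97 in fresh cells, 2.71 to 3.75 at airlift, 2.09 to 2.74 in NTHi cultures and 1.61 to 2.27 in day 4 controls. Sox10, the defining glial factor of that list, was at 0 in all fresh and all airlift libraries, and the part of the other 7 markers in the Syp difference was not tested.

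Dclk1 encodes a microtubule-associated kinase that marks tuft cells in the mouse gut. It had 13.2, 13.2 and 9.22 CPM in the fresh cells of experiments A, B and C. It ranged over 44.3 to 60.5 CPM (median 52.4) at airlift, over 23.7 to 34.5 CPM (median 28.4) in NTHi cultures and over 26.1 to 33.9 CPM (median 29.9) in day 4 controls. Fresh, airlift and day 4 libraries did not overlap, while the 2 day 4 groups lay within each other's spread. Dclk1 rose at airlift against fresh isolation by 2.17 ± 0.13 on the log2 scale, a fold of 4.49 (edgeR adjusted p = 5.03e-11). It then fell in day 4 controls against airlift by 0.86 ± 0.09 (edgeR adjusted p = 2.53e-07) and stayed above fresh cells by 1.31 ± 0.13 (edgeR adjusted p = 3.16e-08). NTHi against control differed by -0.03 ± 0.08 (edgeR adjusted p = 0.802). Mesenchymal cells can also express Dclk1. The summed CPM of 8 mesenchymal markers was 16.7 to 29.9 in fresh cells, 25.2 to 70.2 at airlift, 180 to 493 in NTHi cultures and 183 to 456 in day 4 controls. These markers did not move together: Col1a1 averaged 3.09 CPM in fresh cells, 24.6 at airlift, 170 in NTHi cultures and 156 in day 4 controls, while Dcn averaged 12.5 CPM in fresh cells, 1.83 at airlift, 16.6 in NTHi cultures and 7.30 in day 4 controls. Their part in the Dclk1 differences was not tested. The small genes Gm25132, Gm9831 and Gm31443 overlap Dclk1 and averaged at most 0.195 CPM in any group.

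Avil encodes advillin, an actin-bundling protein of the villin family found in tuft cells and sensory neurons. It had 4.64, 4.66 and 4.54 CPM in the fresh cells of experiments A, B and C. It ranged over 4.63 to 6.34 CPM (median 5.39) at airlift, over 0.634 to 1.60 CPM (median 1.07) in NTHi cultures and over 0.680 to 1.36 CPM (median 0.991) in day 4 controls. All day 4 libraries lay below all fresh and airlift ones. Avil fell in day 4 controls against airlift by 2.45 ± 0.14 on the log2 scale, a fold of 0.183 (edgeR adjusted p = 7.61e-11), and its log2 fold change against fresh cells was -2.20 ± 0.16 (edgeR adjusted p = 6.34e-10). Airlift against fresh differed by 0.25 ± 0.16 (edgeR adjusted p = 0.164) and NTHi against control by 0.17 ± 0.18 (edgeR adjusted p = 0.501). With libraries scaled by their totals alone, which moves the median of all genes by 0.50 between airlift and fresh cells, the airlift value was 0.74 ± 0.17 (edgeR adjusted p = 0.000488). Tsfm, a mitochondrial translation factor gene whose GENCODE vM21 model overlaps Avil on the opposite strand, while the RefSeq models do not overlap, averaged 8.44 CPM in fresh cells, 19.7 at airlift, 18.6 in NTHi cultures and 18.3 in day 4 controls. The use of strand in counting is not given in the sources used here, so reads where these genes overlap cannot be told apart.

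Pou2f3 encodes the POU-domain factor without which tuft cells do not form in mice. It was scarce, with 2, 6 and 8 counts in the fresh cells of experiments A, B and C. It had 5 to 18 counts per library at airlift (median 9), 0 to 4 in NTHi cultures (median 2) and 0 to 12 in day 4 controls (median 4). In CPM, means were 0.187 ± 0.104 in fresh cells (SD, n = 3), 0.269 ± 0.113 at airlift (n = 6), 0.0413 ± 0.0365 in NTHi cultures and 0.112 ± 0.0891 in day 4 controls (n = 7 each), and day 4 controls overlapped with every other group. Pou2f3 passed the filter on low counts through airlift libraries with 14, 10 and 18 counts and a control with 12. Airlift was the group where it was highest, so the filter favoured a fall after it. Within that limit Pou2f3 fell in day 4 controls against airlift by 1.39 ± 0.45 on the log2 scale (edgeR adjusted p = 0.0132). Without experiment B that value was -1.002 ± 0.461 (edgeR adjusted p = 0.0955). Airlift against fresh gave 0.57 ± 0.57 (edgeR adjusted p = 0.369) and day 4 control against fresh -0.82 ± 0.60 (edgeR adjusted p = 0.224). For NTHi against control Pou2f3 missed the filter on low counts, and an exact two-sided permutation test of mean CPM within experiments gave p = 0.0722 (adjusted p = 0.161 over 10 such tests).

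Trpm5 encodes the cation channel that depolarises tuft cells after taste-receptor signalling. It had 6, 10 and 14 counts in the fresh cells of experiments A, B and C and 2 to 6 in each airlift library. It had counts in 2 of 7 NTHi cultures and in 4 of 7 day 4 controls, with at most 4 counts in any of these. A library at 0 allows up to 3 counts, which is 0.0763 to 0.0812 CPM in NTHi cultures and 0.0708 to 0.0767 CPM in controls, for counting error only. Fresh libraries (0.219 to 0.485 CPM) lay above all cultured ones (at most 0.175 CPM). Trpm5 passed the filter in no comparison. Exact two-sided permutation tests within experiments gave p = 0.037 for airlift against fresh and p = 0.0278 for day 4 control against fresh, each the smallest that those libraries allow, and p = 0.0111 for day 4 control against airlift. Adjusted over 10 such exact tests these were 0.123, 0.123 and 0.111, none past the threshold, and NTHi against control gave p = 0.667. With so large a smallest p, the tests against fresh cells had little room to pass the threshold after adjustment, whatever the counts. In a fit with no filter on low counts, where 51.3% of 29585 genes were called in either direction, day 4 control against fresh gave -3.29 ± 0.83 on the log2 scale (edgeR adjusted p = 0.000204). Without the filter Trpm5 was called in no other comparison. Airlift against fresh gave -1.77 ± 0.80 (edgeR adjusted p = 0.0562) and day 4 control against airlift -1.52 ± 0.79 (edgeR adjusted p = 0.134). NTHi against control gave -0.81 ± 1.26 (edgeR adjusted p = 0.719).

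Ascl3 encodes a basic helix-loop-helix factor of ionocytes. It had 25, 21 and 19 counts in the fresh cells of experiments A, B and C. It had 3 to 23 counts at airlift (median 17.5), 2 to 12 in NTHi cultures (median 10) and 0 to 8 in day 4 controls (median 5). In CPM, fresh libraries (0.659 to 0.913) lay above all others, and airlift (0.0751 to 0.613) overlapped with NTHi (0.0511 to 0.305) and control cultures (0 to 0.205). The 1 low airlift library, replicate 1 of experiment A with 3 counts, made the overlap with both day 4 groups. Ascl3 fell in day 4 controls against airlift by 1.72 ± 0.47 on the log2 scale (edgeR adjusted p = 0.00457), and its log2 fold change against fresh cells was -2.61 ± 0.53 (edgeR adjusted p = 0.000207). It passed the filter on low counts through fresh and airlift libraries alone, where it was high, as no day 4 control had above 8 counts. The filter thus favoured a fall to day 4. Airlift against fresh gave -0.89 ± 0.50 (edgeR adjusted p = 0.112). Ascl3 missed the filter for NTHi against control: means were 0.213 ± 0.0946 CPM in NTHi cultures and 0.127 ± 0.0685 CPM in controls (SD, n = 7 each), with an exact two-sided permutation p = 0.0806 (adjusted p = 0.161).

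Foxi1 encodes the forkhead factor that directs ionocyte formation. It had 0, 6 and 2 counts in the fresh cells of experiments A, B and C, 0 counts in all 6 airlift and all 7 NTHi libraries, and 6 counts in 1 control, replicate 1 of experiment C, with 0 in the other 6. At airlift a count of 0 allows up to 0.0739 to 0.0876 CPM per library, for counting error only, and no fold is given. The 4 exact two-sided permutation tests gave p from 0.111 to 1. With no filter on low counts, 48.9% of 29585 genes were called in either direction between airlift and fresh cells. Foxi1 was among them (edgeR adjusted p = 0.0255), a call that rests on 8 counts in fresh cells. Without the filter it was not called for day 4 control against fresh (edgeR adjusted p = 0.272) or against airlift (edgeR adjusted p = 0.273). NTHi against control was not called either (edgeR adjusted p = 0.313).

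Dclk1, Avil, Pou2f3 and Ascl3 fell between airlift and day 4, and RefSeq promoters were at hand for all of these but Pou2f3. Avil and Ascl3 hold a core of the octamer that POU factors bind and were chosen to be shown after that match was seen, while the 250 bases before each of the 2 starts of Dclk1 hold none. The sequences are from GRCm38.p6, 5′ to 3′ on the strand of the gene. Capitals mark the core, ATGCAAA (reverse complement TTTGCAT). Avil lies at chr10:127000459-127000708 on the plus strand and Ascl3 at chr7:109731733-109731982 on the minus strand.
Avil: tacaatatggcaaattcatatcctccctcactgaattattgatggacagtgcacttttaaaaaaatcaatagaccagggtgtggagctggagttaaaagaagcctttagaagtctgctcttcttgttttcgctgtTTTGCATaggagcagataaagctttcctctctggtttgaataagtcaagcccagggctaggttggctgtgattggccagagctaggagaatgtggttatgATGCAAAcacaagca
Ascl3: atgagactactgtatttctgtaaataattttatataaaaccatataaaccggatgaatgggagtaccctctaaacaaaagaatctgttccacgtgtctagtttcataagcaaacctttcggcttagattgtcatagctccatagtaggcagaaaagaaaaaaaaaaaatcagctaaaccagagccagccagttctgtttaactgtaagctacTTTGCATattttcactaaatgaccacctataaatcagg
Avil held the core on the strand of the gene, beginning 15 bases before the start, and on the other strand beginning 115 bases before it. Ascl3 held it on the other strand, 38 bases before the start. Of the 32841 promoters, 4.1% held the core in this window on either strand. Of the 9 genes, 8 had a promoter in the table, and the core was found in no other of these 8.

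**Figure D2:**
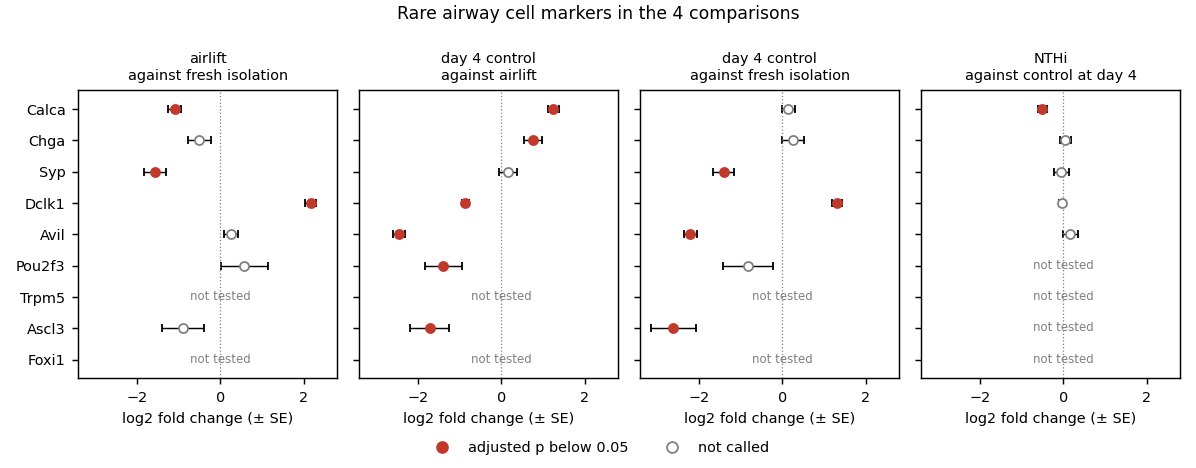
Log2 fold change (horizontal axes, ± SE) of the 9 genes in the 4 comparisons, with filled points for edgeR adjusted p below 0.05 and the genes that missed the filter written as not tested. Calca is the 1 filled point for NTHi against control, at -0.50, while day 4 control against airlift has 6 filled points on both sides of 0.

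Levels between genes are compared only per kilobase of exon, with the joined length of all exons annotated for a gene in GENCODE vM21. That length was 15296 bases for Dclk1 and 1684 for Calca. Transcripts shorter than the joined exons would have a higher level per length, so the order of genes depends on this choice. Calca was the highest of the 9 in fresh cells at 3.05 ± 0.562 CPM per kb (SD, n = 3), in NTHi cultures at 2.32 ± 0.182 and in day 4 controls at 3.29 ± 0.514 (n = 7 each). At airlift Dclk1 was the highest at 3.47 ± 0.425 CPM per kb (SD, n = 6), above Avil at 1.60 ± 0.199 and Calca at 1.4 ± 0.26, and Avil and Calca lay within each other's spread. Ascl3, the shortest of the genes, had a level per length of 1.10 ± 0.185 CPM per kb in fresh cells, close to that of Avil at 1.36 ± 0.0181. Trpm5, Pou2f3 and Foxi1 stayed below 0.1 CPM per kb in the mean of every group. The GENCODE models are of build GRCm38, so the lengths may differ from those the counts were made with.

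**Figure D3:**
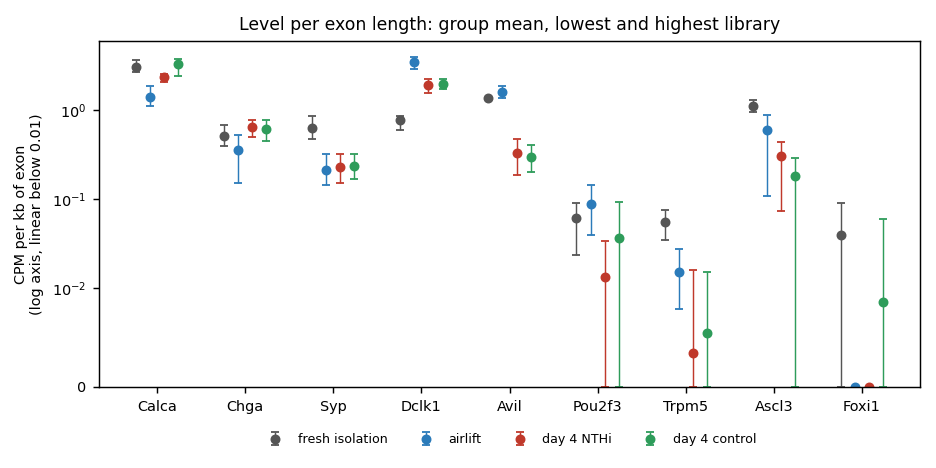
Mean level per kilobase of exon (vertical axis, CPM per kb, logarithmic above 0.01 and linear below) for each gene and group, with bars to the lowest and highest library. Calca at 3.29 CPM per kb led the day 4 controls and Dclk1 at 3.47 CPM per kb led airlift.

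Markers of 1 cell type did not share 1 pattern over the 23 libraries. Between the tuft genes, Pearson r of log2(CPM + 1) was 0.70 for Pou2f3 and Avil, 0.59 for Trpm5 and Avil, 0.19 for Dclk1 and Avil and -0.52 for Trpm5 and Dclk1. For the neuroendocrine genes it was 0.54 for Calca and Chga, 0.34 for Calca and Syp and 0.12 for Chga and Syp. The tuft pair Trpm5 and Pou2f3 gave 0.41, and the ionocyte pair Foxi1 and Ascl3 gave 0.29. Across cell types, values ran from -0.77 for Syp and Dclk1 to 0.76 for Syp and Trpm5. These are descriptions over libraries that share 4 groups and 3 experiments, and those of the scarce genes rest on few counts. Among 13357 other genes, the patterns most like Calca were those of Adgrl1, a latrophilin receptor (r = 0.93), Ivl, the cornified-envelope protein involucrin (0.91), and Tinag (0.90). For Chga they were Bok, Ncs1 and Prr29 (0.88, 0.88 and 0.87), and for Syp Dnajb1, a heat shock co-chaperone, Egr3, an immediate early factor, and Tekt2, a tektin of cilia (0.89 each). For Dclk1 they were Syt8, Lman1 and Ncapd2 (0.97, 0.96 and 0.96), and for Avil Selenbp1, Fgfbp1 and Isg20 (0.96, 0.96 and 0.95). The other 4 genes averaged below 1 CPM in every group and were not compared in this way.

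A list of 24 other neuroendocrine genes showed no common direction for NTHi. Of 22 tested, 3 were higher and 5 lower in NTHi cultures than in controls, where 20.1% of all genes were higher and 20.4% lower, with a median log2 fold change of -0.08 against 0 for all genes. Scg2, the granule protein secretogranin II, averaged 13.3 ± 1.33 CPM in NTHi cultures and 8.95 ± 1.08 CPM in controls (SD, n = 7 each; log2 fold change 0.57 ± 0.08, edgeR adjusted p = 2.63e-05). Cpe, the carboxypeptidase that trims peptide hormones, averaged 14.2 ± 2.91 CPM in NTHi cultures and 18.6 ± 2.99 CPM in controls (-0.40 ± 0.08, edgeR adjusted p = 0.000873). At airlift against fresh isolation, 6 of 23 were higher and 5 lower, beside 37.9% of all genes higher and 36.7% lower (list median -0.08, all genes 0.00). Uchl1, a ubiquitin hydrolase of neurons and neuroendocrine cells, averaged 73.0 ± 6.47 CPM at airlift (n = 6) and 6.58 ± 1.02 CPM in fresh cells (n = 3), a log2 fold change of 3.49 ± 0.12 (edgeR adjusted p = 1.15e-14). Sv2a, a vesicle protein like Syp, was lower at airlift, with 0.440 ± 0.141 CPM against 2.21 ± 0.401 CPM in fresh cells (-2.33 ± 0.27, edgeR adjusted p = 2.66e-07).

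In day 4 controls against airlift, 9 of 23 genes of that list were higher and 2 lower, beside 26.9% of all genes higher and 27.7% lower (list median 0.27, all genes -0.02). Against fresh isolation 10 were higher and 4 lower, beside 38.8% of all genes higher and 37.7% lower (list median 0.10, all genes 0.02). Calcb, the beta form of the Calca peptide, averaged 21.3 ± 5.51 CPM in day 4 controls (SD, n = 7) and 3.87 ± 1.93 CPM at airlift (n = 6), a log2 fold change of 2.41 ± 0.27 (edgeR adjusted p = 4.49e-07). Ncam1, an adhesion molecule of neuroendocrine cells, averaged 5.37 ± 1.99 CPM in day 4 controls and 1.01 ± 0.600 CPM at airlift (2.37 ± 0.25, edgeR adjusted p = 3.00e-07). Uchl1 moved the other way, with 11.02 ± 1.09 CPM in day 4 controls against 73.0 ± 6.47 CPM at airlift (-2.74 ± 0.08, edgeR adjusted p = 1.13e-14).

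Of 25 other tuft genes, 12 were tested for NTHi against control, and 1 was higher and 9 lower, beside 20.1% of all genes higher and 20.4% lower, with a median of -0.93 against 0 for all genes. The lower genes were mostly those of eicosanoid synthesis and of signalling that leukocytes also express. Ltc4s, leukotriene C4 synthase, averaged 1.52 ± 0.253 CPM in NTHi cultures and 14.4 ± 3.38 CPM in controls (SD, n = 7 each; -3.24 ± 0.18, edgeR adjusted p = 1.69e-09). Alox5, 5-lipoxygenase, averaged 4.49 ± 1.65 CPM in NTHi cultures and 20.5 ± 5.28 CPM in controls (-2.21 ± 0.22, edgeR adjusted p = 9.83e-07). Ptgs1, cyclooxygenase 1, averaged 80.2 ± 8.22 CPM in NTHi cultures and 158 ± 26.0 CPM in controls (-0.98 ± 0.08, edgeR adjusted p = 1.52e-07). The summed CPM of 8 macrophage markers was 203 to 782 in NTHi cultures and 691 to 1449 in controls, and none of the 8 was at 0 in every library of either group. The markers did not move together: Marco averaged 50.1 CPM in NTHi cultures and 393 in controls and C1qb 0.802 in NTHi cultures and 8.08 in controls, while Csf1r averaged 69.5 in NTHi cultures and 85.1 in controls and Adgre1 90.7 in NTHi cultures and 39.8 in controls. Their part in these differences was not tested. Of the listed tuft genes not tested here, Chat and Sucnr1 had 0 counts in all 23 libraries and Il25 and Ffar3 had 2 counts in 1 library each. Tas1r3, a taste receptor subunit, was counted in all 23 libraries and averaged 1.58 ± 0.386 CPM in NTHi cultures and 1.27 ± 0.327 CPM in controls (0.30 ± 0.20, edgeR adjusted p = 0.237).

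In the untreated course, 3 of 17 tuft list genes were higher and 12 lower at airlift than in fresh cells, beside 37.9% of all genes higher and 36.7% lower (list median -1.34, all genes 0.00). Kctd12 averaged 33.5 ± 1.91 CPM at airlift (SD, n = 6) and 156 ± 22.9 CPM in fresh cells (n = 3), a log2 fold change of -2.19 ± 0.10 (edgeR adjusted p = 4.55e-13). Gnat3, the taste G protein gustducin, had 16 counts over the airlift libraries and 46 over the fresh ones, a log2 fold change of -2.90 ± 0.56 (edgeR adjusted p = 0.00014). Gnat3 had at most 5 counts in an airlift library and 2 in a day 4 control, and Gfi1b at most 3 and 4. Both passed the filter on low counts only through the fresh libraries, where they were high. Their place among the lower genes, here and at day 4 against fresh, therefore follows in part from the filter. Day 4 controls against airlift had 6 higher and 3 lower, beside 26.9% of all genes higher and 27.7% lower (list median -0.12, all genes -0.02). Espn, the actin-bundling protein espin, was among the 3 lower, as Avil was, with 8.31 ± 0.793 CPM in day 4 controls and 29.4 ± 4.23 CPM at airlift (-1.84 ± 0.08, edgeR adjusted p = 4.02e-12). Next by p were 2 of the 6 higher genes. Ptgs1 averaged 158 ± 26.0 CPM in day 4 controls and 47.0 ± 11.6 CPM at airlift (1.72 ± 0.10, edgeR adjusted p = 1.22e-10). Spib averaged 6.26 ± 1.10 CPM in day 4 controls and 2.70 ± 0.543 CPM at airlift (1.20 ± 0.13, edgeR adjusted p = 3.58e-07). Against fresh isolation, 3 were higher and 13 lower in day 4 controls, beside 38.8% of all genes higher and 37.7% lower (list median -1.24, all genes 0.02). Gnat3 was among the lower here too, under the same limit of the filter, with a log2 fold change of -4.39 ± 0.62 (edgeR adjusted p = 3.43e-06).

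**Figure D4:**
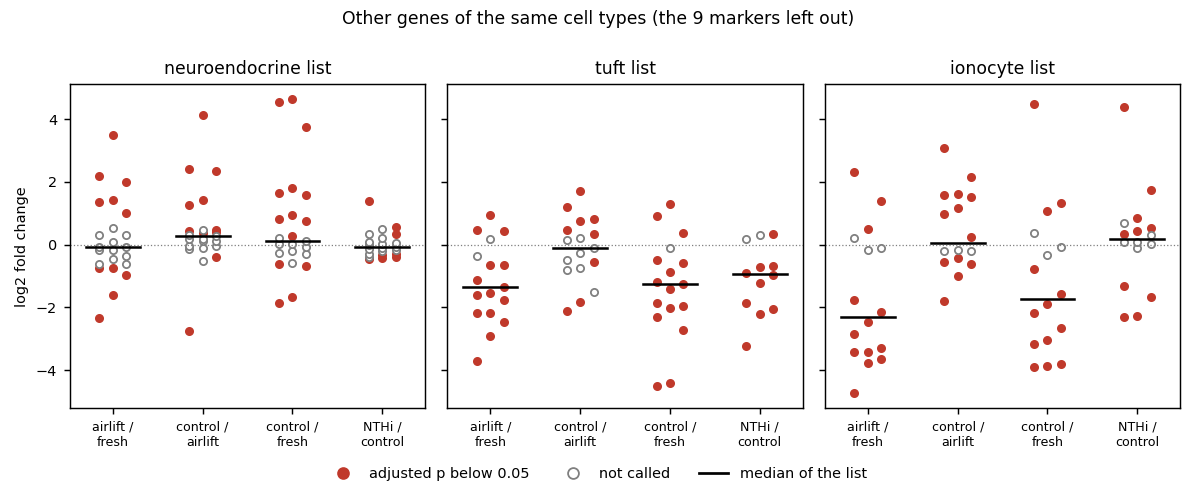
Log2 fold changes (vertical axes) of the other listed neuroendocrine, tuft and ionocyte genes in the 4 comparisons, 1 point per gene tested, filled where edgeR adjusted p was below 0.05, with a line at the median of the list. The tuft list had a median of -0.93 for NTHi against control, while the neuroendocrine and ionocyte medians were -0.08 and 0.19.

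Of 19 other ionocyte genes, 16 were tested, and in NTHi cultures against controls 6 were higher and 4 lower, beside 20.1% of all genes higher and 20.4% lower (list median 0.19, all genes 0). Slc26a4, the anion exchanger pendrin, averaged 215 ± 42.6 CPM in NTHi cultures and 10.9 ± 5.14 CPM in controls (SD, n = 7 each; 4.39 ± 0.15, edgeR adjusted p = 5.54e-12). Cftr, the chloride channel for which ionocytes are known, averaged 24.5 ± 3.35 CPM in NTHi cultures and 7.203 ± 0.603 CPM in controls (1.76 ± 0.09, edgeR adjusted p = 9.12e-10). Atp6v1b1, a proton pump subunit, was lower, with 0.604 ± 0.0984 CPM in NTHi cultures and 3.10 ± 1.54 CPM in controls (-2.27 ± 0.27, edgeR adjusted p = 8.44e-06). In the same NTHi libraries Foxi1 had 0 counts, against 6 in controls, all in 1 library. Ascl3 had 57 counts in NTHi libraries, against 36 in controls. Neither gene passed the threshold in the exact permutation tests of NTHi against control. Foxi2 had 0 counts in all 23 libraries. Other airway epithelial cells also express Cftr and Slc26a4, and the cell source was not tested.

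At airlift against fresh isolation, 3 of the 16 ionocyte list genes were higher and 10 lower, beside 37.9% of all genes higher and 36.7% lower (list median -2.30, all genes 0.00). Cftr averaged 8.45 ± 2.14 CPM at airlift (SD, n = 6) and 46.7 ± 12.0 CPM in fresh cells (n = 3), a log2 fold change of -2.46 ± 0.14 (edgeR adjusted p = 1.03e-11). Tfcp2l1, a transcription factor of transporting epithelia, averaged 43.3 ± 3.81 CPM at airlift and 194 ± 26.5 CPM in fresh cells (-2.14 ± 0.07, edgeR adjusted p = 3.29e-15). Day 4 controls against airlift had 8 higher and 5 lower, beside 26.9% of all genes higher and 27.7% lower (list median 0.04, all genes -0.02). Against fresh isolation there were 3 higher and 10 lower, beside 38.8% of all genes higher and 37.7% lower (list median -1.74, all genes 0.02). Cftr itself differed between day 4 controls and airlift by -0.18 ± 0.12 (edgeR adjusted p = 0.198), the step in which Ascl3 fell.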

How the data were processed

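Each experiment has 1 table of counts, deposited as whole numbers per gene without normalisation. The submitters' processing notes name STAR, DESeq2 and GRCm39 without versions; how reads were counted, and whether by strand, is not given in the sources used here. In each table, 25 broken lines were left out, which removed at most 0.082% of a library's counts and no gene described here. Groups and experiments came from the labels. The genes, lists and tests were chosen with earlier results of these data known. Genes were kept by filterByExpr (minimum count 10), scaled by TMM and tested with edgeR 4.0.16 (R 4.3.3), with group and experiment as terms and a Benjamini-Hochberg adjusted p below 0.05 over all genes kept: 14 libraries for NTHi, and 16 for the untreated course. Standard errors were the log2 fold change divided by the square root of F. Fits were tested on simulated data. From each list, up to 4 genes per comparison with the smallest p could be named. Exceptions are list genes named for near-zero counts, Gnat3, Gfi1b and Tas1r3, and Cftr, Uchl1 and Calcb where repeated. Up to 3 genes of most similar pattern were named per gene. Alternatives were DESeq2 1.42.0 and its size factors, library totals, no filter, no experiment term, summed counts, 1 fit of all libraries, halved counts, a replicate block, and leaving out experiments or libraries; permutation tests and leaving out the 2 libraries of experiment C that stood apart were chosen after seeing the data.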

Additional observations from a re-analysis of the deposited data

Results flagged for a closer look

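Foxi1 stood apart in 1 library: control replicate 1 of experiment C had 0.142 CPM (6 counts), while the other 6 day 4 controls had 0 counts. With the other 6 tied at 0, a count in any 1 library is enough to set it apart, so the usual chance rate does not apply. It was the 1 case among 25 gene and group combinations examined. The same library was 1 of the 2 that differed most from their replicates over all genes.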

How the results depend on the processing

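The number of genes called was within 1.5 times of the reported one in each alternative: 1 for NTHi against control, 3 to 4 for airlift against fresh isolation, 4 to 6 for day 4 control against airlift and 4 to 6 for day 4 control against fresh isolation. Of 613 alternative values of single genes, 599 kept their direction and their side of the threshold. Calca for NTHi against control lay between -0.58 and -0.46 (log2) throughout, with an adjusted p of at most 0.0202 outside the fits that leave out 1 library. The values that changed sign were near 0 and not called. Chga for NTHi against control was -0.013 with library totals alone and -0.067 without experiment C. Syp for NTHi against control was 0.06 without experiment A, and -0.175 to 0.035 when 1 library was left out. Dclk1 for NTHi against control was 0.008 without experiment B, and -0.09 to 0.004 when 1 library was left out. Syp for day 4 control against airlift was -0.038 without experiment B. Library totals alone moved all genes by 0.50 and 0.48 against fresh cells, and Calca and Chga then passed the threshold for day 4 control against fresh (0.62 and 0.73). The replicate block, whose numbers paired libraries inconsistently (correlations of -0.72 to 0.32), gave -0.49 ± 0.10 for Calca in NTHi against control and changed no call among genes it tested. It left Pou2f3 and Ascl3 untested for day 4 control against airlift, where 4 genes were called. Depth limits Trpm5, Foxi1 and Pou2f3, whose medians were at most 10 counts per library in any group.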

Other observations

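Chga had an even count in all 23 libraries, with 16 to 88 counts each, and Trpm5 had an even count in all 15 libraries where it was counted. Of 18548 genes with a count in at least 20 libraries, 444 (2.4%) had no odd count, and the median gene had an odd count in 10 libraries. Ascl3 by contrast had an odd count in 11 of 22 libraries and Avil in 12 of 23. Of the other neuroendocrine genes listed, Grp, the gene of gastrin-releasing peptide, had 2 counts in 1 library.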
